A study of Homo sapiens with 4 samples.

Results

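The genes described here take up iron, store it, sense it, and make or break down heme. They are TFRC, SLC11A2, FTH1, FTL, ACO1, IREB2, ALAS1, FECH and HMOX1, 9 genes picked by function and not by a measured value. Of these, 7 had a probe set under their symbol in the annotation of the array and were measured, among 24241 genes in all. FTH1 and IREB2 were not analysed here.

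RNA from 4 cultures of MOLM-14 was hybridised to Affymetrix whole-transcript arrays. MOLM-14 is an established cell line from a human acute myeloid leukaemia. One group of 2 cultures was given GSK621 (30 µM, 6 h), which activates AMPK, a kinase that senses low energy. The second group of 2 was first exposed to rapamycin (10 nM, 12 h), which inhibits the growth-promoting mTORC1 kinase complex, before GSK621 at that same dose and duration. All 4 cultures thus carried GSK621 and were grown in serum-supplemented alpha-MEM. Every difference below is rapamycin then GSK621 minus GSK621, and what GSK621 does by itself cannot be read from these arrays. The labels call the cultures biological replicates (n = 2 per group), and they are cultures of a single cell line.

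Most cells take up iron as transferrin bound to its receptor, which TFRC encodes. Iron leaves the endosome through the transporter encoded by SLC11A2, and what is not used at once is kept in the cytosol inside ferritin, a shell of heavy (FTH1) and light (FTL) chains. The iron regulatory proteins encoded by ACO1 and IREB2 bind RNA hairpins called iron-responsive elements when iron is scarce. Binding near the start of ferritin mRNAs blocks their translation, and binding behind the coding part of TFRC mRNA protects it from decay. The array reads mRNA levels, so the second kind of control can show in it and the first cannot. Heme synthesis starts with ALAS1 and ends with FECH, which inserts iron into the ring. HMOX1 opens the ring again and sets the iron free.

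The sequences printed here are from the RefSeq start-site windows of GRCh38.p14 and are shown because they hold letters tied to the control of these genes by iron, by low oxygen or by the factor NRF1. Of the 7 measured members 6 had at least 1 window, with 4 windows for SLC11A2. The FTL stretch lies at chr19:48965329-48965358 on the plus strand, 21 to 50 bases from the start of transcription, and its capitals mark CAGTG, the letters that open the loop of an iron-responsive element. The TFRC stretch is the 150 bases before the start, chr3:196082091-196082240 on the minus strand. Its capitals mark, in order, ACGTG (the core of a hypoxia response element), GGGCGG (a GC box) and TATAA. The ALAS1 stretch lies at chr3:52198091-52198120 on the plus strand, and its capitals mark GCGCATGCGC, the palindrome bound by the transcription factor NRF1.
FTL: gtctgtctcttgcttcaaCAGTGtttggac
TFRC: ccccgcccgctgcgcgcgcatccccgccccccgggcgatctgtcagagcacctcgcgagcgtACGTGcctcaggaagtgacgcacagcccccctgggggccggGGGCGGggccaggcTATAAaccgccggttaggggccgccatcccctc
ALAS1: ggcagcgcccaagGCGCATGCGCagcggtc

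CAGTG on the gene's own strand stood in 3.75% of all 35116 RefSeq windows over the same 30 bases. In the 150 bases before the start, ACGTG on either strand was found in 12.6% of windows, GGGCGG in 36.8% and TATAA in 12.1%. The TFRC stretch holds 2 more copies of GGGCGG on the other strand, which are left in lower case, and the marked letters do not overlap. The NRF1 palindrome stood in 0.0598% of windows over the same 30 bases as in ALAS1. These are letter matches, and binding to them was not measured.

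Levels are given as the deposited log2 values, 1 per gene and array. Levels of different probe sets are not on a common scale, so differences were taken only within a gene, and percentiles among all genes are given as no more than a rough guide to brightness. By that guide FTL, TFRC and ALAS1 lay above percentile 90 and SLC11A2, FECH and ACO1 between 75.1 and 81.8. HMOX1 lay at 47.6. No detection calls were used, so whether HMOX1 stood above background is unknown.

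With limma, 0 of the 7 measured members passed an adjusted p under 0.05, and 0.0% of all genes did. Nor did any member reach an unadjusted p under 0.05, which 8.51% of all genes (2064) did. The mean was lower after rapamycin for TFRC, FTL, ALAS1, FECH and ACO1 and higher for SLC11A2 and HMOX1. The 5 lower means of 7 stand beside 48.8% lower means among all genes. The median difference of the members was −0.04 on the log2 scale, and that of all genes was 0.0045. The widest of the 7 confidence intervals (95%) ran from −0.25 to 0.59, so for each of these mRNAs a change by 1 or more on the log2 scale lay outside the interval of this fit.

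TFRC, the transferrin receptor, had the largest difference of the 7. Its log2 level was 9.55 and 9.35 on the GSK621 arrays and 9.34 and 9.12 on the arrays of rapamycin then GSK621. The groups did not overlap, but the gap between them was 0.0022, and within each group the arrays lay about as far apart as the groups did. Between same-numbered arrays the difference was −0.21 for replicate 1 and −0.22 for replicate 2, but nothing in the labels ties these numbers to a batch. The mean was 9.23 ± 0.16 (SD, n = 2) after rapamycin then GSK621 against 9.45 ± 0.15, a difference of −0.22 ± 0.13 (SE) or 1.16-fold lower, which did not pass (limma adjusted p = 0.701). The 95% interval of the difference ran from −0.54 to 0.11, from 0.687 to 1.08 as a ratio. With any 1 array left out the difference lay between −0.33 and −0.11, lowest without replicate 1 and closest to 0 without replicate 2 of rapamycin then GSK621. Arrays measure a whole culture, so fewer cells with the mRNA and less mRNA per cell cannot be told apart.

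SLC11A2, the endosomal iron transporter DMT1, went the other way. Its level was 7.29 and 7.36 after GSK621 and 7.44 and 7.45 after rapamycin then GSK621. The groups were separated by 0.09, and the arrays within a group lay closer to each other than those of TFRC. The difference was 0.13 ± 0.09 (SE), 1.09-fold higher, with an interval of −0.11 to 0.36, and it did not pass (limma adjusted p = 0.760). The probe set covers the gene as a whole, so transcripts with and without an iron-responsive element cannot be told apart. TFRC and SLC11A2 were the members whose groups did not overlap, 1 lower and 1 higher, where 18.9% of all genes did not overlap with lower and 20.5% with higher values.

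**Figure D1:**
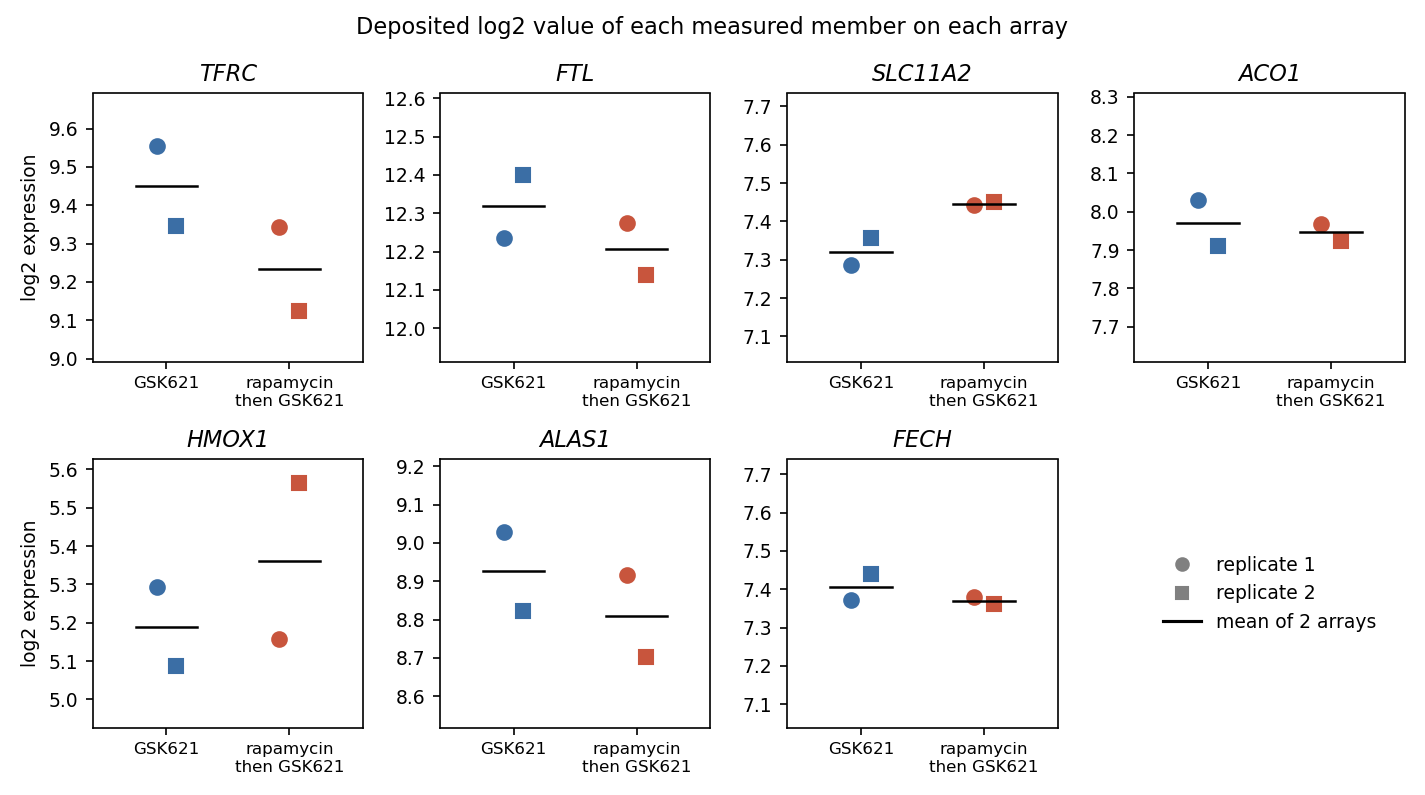
Deposited log2 expression (vertical axis, the same span of 0.7 in every panel) of the 7 measured members on the 4 arrays, with GSK621 at the left and rapamycin then GSK621 at the right of each panel. Circles are replicate 1, squares are replicate 2 and black lines are means of 2 arrays. The groups are apart for SLC11A2, nearly touch for TFRC and overlap for the other 5.

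FTL, the ferritin light chain, was bright on every array, at 12.24 and 12.40 after GSK621 and 12.27 and 12.14 after rapamycin then GSK621. The groups overlapped, and the lowest and the highest value came from different groups. The difference was −0.11 ± 0.11 (SE) with an interval of −0.39 to 0.17 (limma adjusted p = 0.821). It came to −0.030 without GSK621 replicate 2 and to −0.19 without GSK621 replicate 1. FTL belongs to a family with near-identical processed copies in the genome, so its probe set may also read other copies. Ferritin is controlled largely in translation through the hairpin whose loop is printed above, and protein was not measured.

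ACO1, the iron regulatory protein that doubles as the cytosolic aconitase, had levels of 8.03 and 7.91 after GSK621 and 7.97 and 7.92 after rapamycin then GSK621. Both rapamycin arrays lay between the GSK621 arrays. The difference was −0.02 ± 0.10 (SE), with an interval of −0.27 to 0.22 (limma adjusted p = 0.963), and it turned to 0.03 without GSK621 replicate 1. ACO1 changes its function through its iron-sulfur cluster, which mRNA levels do not show.

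ALAS1, the first and usually rate-limiting enzyme of heme synthesis outside red blood cells, had levels of 9.03 and 8.82 after GSK621 and 8.92 and 8.70 after rapamycin then GSK621. The groups overlapped, and in both the array numbered 2 was the lower, as it was for TFRC. Between same-numbered arrays ALAS1 differed by −0.11 for replicate 1 and −0.12 for replicate 2. The difference was −0.12 ± 0.13 (SE) with an interval of −0.44 to 0.21 (limma adjusted p = 0.843). It came to −0.0096 without replicate 2 of rapamycin then GSK621 and to −0.22 without replicate 1 of that group. FECH, ferrochelatase, had 4 arrays close to each other, at 7.37 and 7.44 after GSK621 and 7.38 and 7.36 after rapamycin then GSK621. Its difference was −0.04 ± 0.09 (SE), with an interval of −0.27 to 0.20 (limma adjusted p = 0.941).

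HMOX1, heme oxygenase 1, had the widest spread. Its level was 5.29 and 5.09 after GSK621 and 5.16 and 5.57 after rapamycin then GSK621. Replicate 2 of rapamycin then GSK621 stood above the other 3 arrays, and the groups overlapped. The difference was 0.17 ± 0.17 (SE) with an interval of −0.25 to 0.59 (limma adjusted p = 0.816). Without that array it turned to −0.03, and without replicate 1 of rapamycin then GSK621 it came to 0.38.

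**Figure D2:**
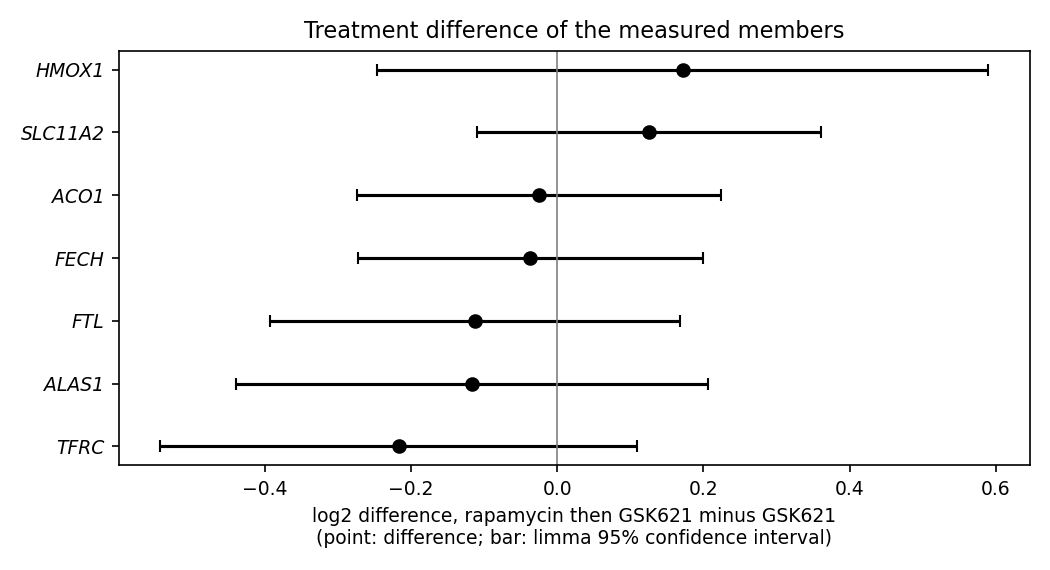
Log2 difference, rapamycin then GSK621 minus GSK621 (horizontal axis), of the 7 measured members. Points are differences and bars are limma 95% confidence intervals from 2 arrays per group. All 7 intervals include 0, and TFRC lies lowest at −0.22 and HMOX1 highest at 0.17.

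The absolute differences of the members reached 0.22, within the range of most genes. The median absolute difference over all genes was 0.11. The absolute difference of TFRC lay at percentile 80.3 of all genes and that of HMOX1 at 70.9. SLC11A2, ALAS1 and FTL lay between 52.7 and 57.4, FECH at 19.2 and ACO1 at 13.0.

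The wider iron and heme network was read from 7 further lists, which held 108 genes, of which 99 were measured. With limma 0 of them passed after adjustment, where 0.413 was the smallest adjusted p. Without adjustment 11 genes (11.1%) had a p under 0.05, 5 higher and 6 lower, beside 8.51% of all genes. That count was 5 (5.05%, beside 6.47% of all genes) without replicate 1 of rapamycin then GSK621 and 7 (7.07%, beside 7.73%) without GSK621 replicate 2, so the lists then lay below all genes. It was 13 (13.1%, beside 7.88%) without GSK621 replicate 1 and 9 (9.09%, beside 5.98%) without replicate 2 of rapamycin then GSK621. Among genes above the median level, 7 of 75 list genes (9.33%) had an unadjusted limma p under 0.05, beside 14.6% of all such genes. The groups did not overlap for 51 of the 99 (51.5%) beside 39.4% of all genes, and no share among genes of like level was computed for this count. The lists were chosen with earlier results of these data known, so these counts may carry that choice. The median difference of the 99 was 0.03.

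**Figure D3:**
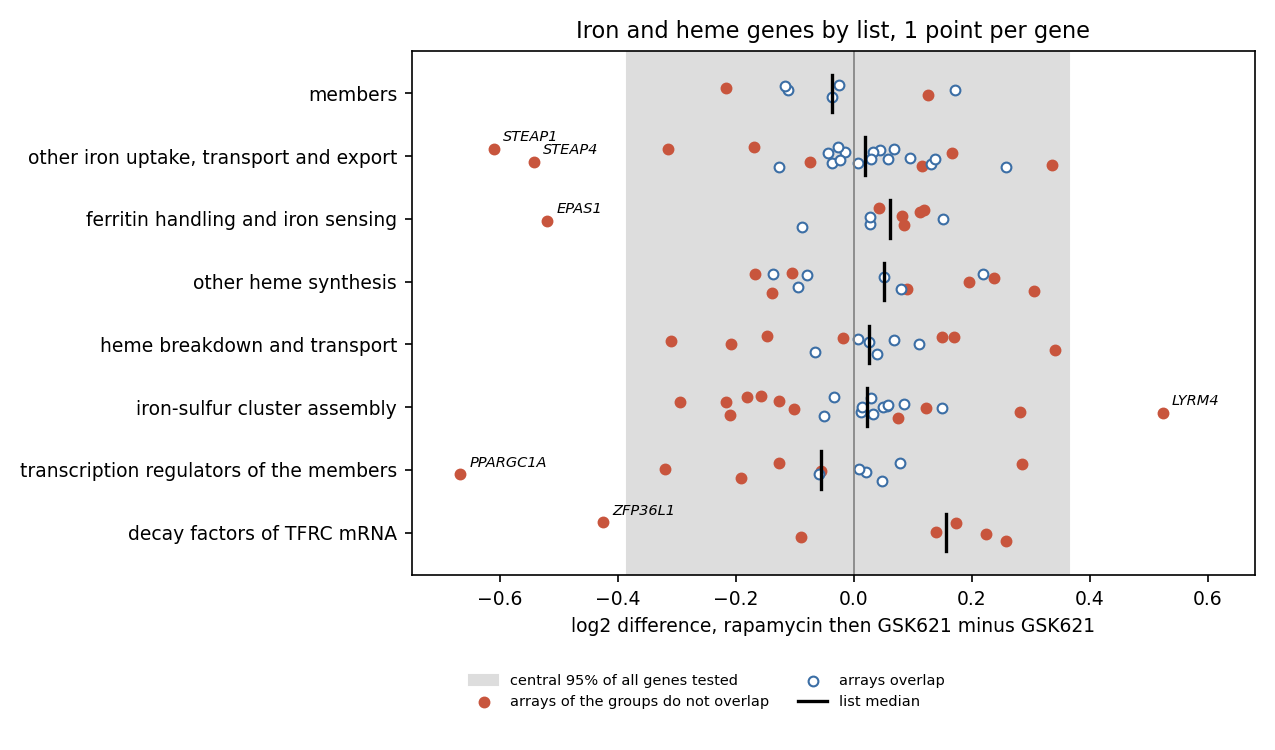
Log2 difference, rapamycin then GSK621 minus GSK621 (horizontal axis), of the 7 measured members and of the 7 other iron and heme lists, 1 point per gene with vertical jitter. Filled points have arrays that do not overlap between the groups, open points overlap, black lines are list medians and the grey band is the central 95% of all genes, −0.39 to 0.37. PPARGC1A, STEAP1, STEAP4, EPAS1 and ZFP36L1 lie below the band and LYRM4 above it, and all 7 members lie inside it.

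Of 24 measured genes of iron uptake, transport and export, 13 had higher and 11 lower means, with a median difference of 0.02. STEAP1 and STEAP4 had the smallest p, members of a heme-binding membrane protein family of which STEAP4 reduces iron and copper before transport. STEAP1 was 3.06 and 2.96 after GSK621 and 2.39 and 2.42 after rapamycin then GSK621, a difference of −0.61 ± 0.10 (SE; limma adjusted p = 0.413). STEAP4 was 3.98 and 3.79 against 3.40 and 3.28, a difference of −0.54 ± 0.11 (limma adjusted p = 0.436). The groups were clearly apart for both, but STEAP1 lay at percentile 4.36 and STEAP4 at 18.2 of mean level, where signal over background is unknown. STEAP3, the endosomal reductase that works beside the transferrin receptor in red cell precursors, had a difference of 0.17 ± 0.13 and came to 0.02 without replicate 1 of rapamycin then GSK621.

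MCOLN1, the lysosomal cation channel that also releases iron, was 7.04 and 7.07 after GSK621 and 7.42 and 7.35 after rapamycin then GSK621, a difference of 0.34 ± 0.09 (SE; limma adjusted p = 0.542). Its groups did not overlap, and the difference stayed between 0.30 and 0.37 with any 1 array left out. HEPH, a ferroxidase that acts with the exporter ferroportin, had −0.32 ± 0.10 (limma adjusted p = 0.564). Like STEAP1 and STEAP4, MCOLN1 and HEPH were named for the smallest p of their list, a choice that favours groups lying apart. SLC40A1, which encodes ferroportin and carries an iron-responsive element, had 0.12 ± 0.10. SLC25A37, the mitochondrial iron importer mitoferrin 1, had −0.08 ± 0.09 at a mean level of 9.96.

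Among genes of ferritin handling and iron sensing, 8 of 10 had higher means, by at most 0.15, and 0 of 10 reached an unadjusted p under 0.05, beside 8.51% of all genes. NCOA4, the receptor that carries ferritin to the lysosome, had 0.09 ± 0.09 (SE) and FBXL5, the ubiquitin ligase subunit that removes iron regulatory protein 2 when iron is plentiful, 0.04 ± 0.09. PCBP2, an iron chaperone and RNA-binding protein, had 0.11 ± 0.10. EPAS1, the hypoxia factor HIF2α whose mRNA carries an iron-responsive element, was 5.94 and 6.65 after GSK621 and 5.74 and 5.81 after rapamycin then GSK621. Its difference was −0.52 ± 0.24 (limma adjusted p = 0.629) and came to −0.17 without GSK621 replicate 2, the array that stood above the other 3, and to −0.87 without GSK621 replicate 1. Its unadjusted limma p was 0.0744, and 0.282 without moderation. It was 0.0454 with a variance trend, 0.0368 with a replicate block and 0.0683 to 0.0761 in the other settings with all 4 arrays. The adjusted p of EPAS1 stayed at 0.376 or above in every setting.

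The remaining heme synthesis genes divided into 7 higher and 6 lower of 13. UROD, the decarboxylase that makes coproporphyrinogen, had the smallest p, at 6.89 and 6.93 after GSK621 and 7.20 and 7.23 after rapamycin then GSK621. The groups were well apart beside the spread within each, with a difference of 0.30 ± 0.09 (SE; limma adjusted p = 0.559). The next enzyme, CPOX, was 7.81 on both GSK621 arrays and 7.64 and 7.65 on the others, a difference of −0.17 ± 0.09 (limma adjusted p = 0.679). TMEM14C, which helps move the porphyrin precursor across the inner mitochondrial membrane, had 0.24 ± 0.11 and the mitochondrial carrier SLC25A39 had 0.20 ± 0.10. UROD, CPOX, TMEM14C and SLC25A39 were named for the smallest p of this list, a choice that favours groups lying apart. ALAS2, the form of the first enzyme used in red cell precursors, lay at 3.79 to 4.13 and had 0.08 ± 0.15, which was −0.08 when replicate 1 of rapamycin then GSK621 was left out and −0.02 without GSK621 replicate 2.

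Of 13 genes of heme breakdown and transport, 8 had higher and 5 lower means. FLVCR2, a membrane transporter related to the heme exporter FLVCR1, was 7.88 and 7.76 after GSK621 and 8.26 and 8.07 after rapamycin then GSK621, a difference of 0.34 ± 0.11 (SE; limma adjusted p = 0.564). BLVRA, the biliverdin reductase that follows heme oxygenase, had −0.31 ± 0.16 (limma adjusted p = 0.663) and came to −0.10 without GSK621 replicate 2. HMOX2, the constitutive heme oxygenase, had 0.04 ± 0.13, and it turned to −0.07 without GSK621 replicate 2 and, by the same amount, without replicate 2 of rapamycin then GSK621.

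Iron-sulfur clusters are the other main use of mitochondrial iron, and 13 of 22 measured assembly genes had higher and 9 lower means. LYRM4, which stabilises the cysteine desulfurase NFS1, was 5.07 and 5.20 after GSK621 and 5.68 and 5.64 after rapamycin then GSK621. Its groups were far apart beside the spread within them, with a difference of 0.52 ± 0.10 (SE; limma adjusted p = 0.430). FDX1 (−0.29 ± 0.14), a ferredoxin, and NFU1 (−0.21 ± 0.11) and BOLA3 (−0.18 ± 0.09), which act late in cluster transfer, had lower means with groups that did not overlap. Without replicate 1 of rapamycin then GSK621, FDX1 and NFU1 each came to −0.13. LYRM4, FDX1, NFU1 and BOLA3 were named for the smallest p of this list, a choice that favours groups lying apart.

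Transcription factors known to act on the members, with the coactivator PPARGC1A and the NRF2 inhibitor KEAP1, were 5 higher and 6 lower of 11. HIF1A, the hypoxia factor that can bind the element marked in the TFRC stretch, was 9.99 and 10.02 after GSK621 and 9.67 and 9.70 after rapamycin then GSK621. The arrays within each group lay close together, and the difference was −0.32 ± 0.09 (SE; limma adjusted p = 0.543). HIF1A protein was not measured, and whether it acted on TFRC in these cultures was not tested. PPARGC1A, a coactivator of mitochondrial genes that raises Alas1 in mouse liver, was 3.76 and 3.70 against 3.24 and 2.88, a difference of −0.67 ± 0.14 (limma adjusted p = 0.436) at percentile 14.5 of mean level. PPARGC1A and HIF1A had the smallest p of this list, and picking by p favours groups lying apart. NFE2L2, the oxidative stress factor NRF2 that drives HMOX1 and ferritin genes, had −0.13 ± 0.10. BACH1, the heme-sensing repressor of HMOX1, had 0.0080 ± 0.11, and it turned to −0.08 without GSK621 replicate 1 and to −0.02 without replicate 2 of rapamycin then GSK621.

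Decay factors that have been linked to TFRC mRNA did not overlap between the groups for 6 of 6 genes, 4 higher and 2 lower. Among all genes 39.4% did not overlap (20.5% higher and 18.9% lower). The list was chosen with earlier results of these data known, so the count may carry that choice. A share among genes of like level was not computed. ZFP36L1, an AU-rich element binding protein, was 6.71 and 7.04 after GSK621 and 6.43 and 6.48 after rapamycin then GSK621, a difference of −0.42 ± 0.14 (SE; limma adjusted p = 0.562). Its relative ZFP36L2 had 0.26 ± 0.10 (limma adjusted p = 0.585), and ZFP36, tristetraprolin, had 0.14 ± 0.10. The endonuclease ZC3H12A, which cuts Tfrc mRNA in mouse cells, had 0.22 ± 0.11 and RC3H1, the stem-loop binding protein roquin 1, had 0.17 ± 0.10. Whether any of these acted on TFRC in these cultures was not tested.

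Genes whose arrays moved most like those of TFRC were sought among the 12119 other genes above the median level, by the root mean square difference of centred log2 values over the 4 arrays. They were CCNQ (0.0072), PCBP4 (0.017) and KCNQ3 (0.021), beside a spread of 0.15 in the TFRC profile itself. For HMOX1 they were ING4 (0.026), ANKK1 (0.029) and the non-coding LIPT2-AS1 (0.031), beside a spread of 0.18. Over 4 arrays this likeness is a description only.

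Marker genes of blood cell types were read by the same rough guide of percentiles among all genes. Of 9 measured myeloid markers, the brightest probe set was that of the granule enzyme LYZ, at 11.61 to 11.78 (percentile 99.7), and the dimmest that of ANPEP, at 4.63 to 5.04 (percentile 40.9). Of 8 erythroid markers, HBB was dimmest at 2.40 to 2.86 (percentile 3.04) and HBA1, which has a near-identical neighbour, brightest at 6.29 to 6.81 (percentile 66.3). Of 7 lymphoid markers, MS4A1 was dimmest at 3.32 to 3.54 (percentile 14.5) and NCAM1 brightest at 8.76 to 9.04 (percentile 90.7). The groups did not overlap for 7 of 9 myeloid, 2 of 8 erythroid and 3 of 7 lymphoid markers, beside 39.4% of all genes, and 0 markers passed the adjusted threshold. Array medians lay between 5.37 and 5.43.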

How the data were processed

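The table deposited by the authors was taken to hold log2 values, with a single value for each gene and array, from Affymetrix whole-transcript arrays per the labels' protocols. R 2.15.3 and Partek are named in the submitters' processing notes. How background was corrected and arrays were normalized, and the log base, is not given in the sources used here. Values ran from 1.84 to 13.28, with array medians between 5.37 and 5.43. Of 25582 probe sets, 24244 had 1 symbol and 1338 none in the platform's annotation, and the brightest was kept for 3 symbols with more than 1. No filter or pseudocount was used.

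Differences were fitted over all 24241 genes in R 4.3.3 with limma 3.58.1 (lmFit, eBayes), by two-sided tests that were Benjamini-Hochberg adjusted (2 residual and 3.39 prior degrees of freedom). The script was tested on simulated data whose changes were larger than any difference of the members. That test does not show whether changes of the members' size would be found. With 2 arrays a side, exact permutation p-values start at 0.333, so none were used.

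The members were named by function, and the lists were chosen with earlier results of these data known. Named genes were the members, a fixed set of neighbours, the up to 4 smallest p per list, and the brightest and dimmest marker. Alternatives were a replicate block, quantile normalization, centring, a filter on dim genes, 2 other variance models, 2 ways of using probe sets, and leaving out each array.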

Additional observations from a re-analysis of the deposited data

How the results depend on the processing

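With 2 arrays per group the number of arrays limits the precision, at a median SE of 0.11. Over 12 alternatives, 0 members and 0 genes of the other lists passed an adjusted p under 0.05. Over all genes the count of 0 became 3 among genes above the median level, 74 with a variance trend and robust estimation, and 1 without moderation. At an unadjusted p under 0.05 the other lists held 11 of 99 genes (11.1%, beside 8.51% of all genes), against 7 of 75 (9.33%, beside 14.6%) above the median level, 19 (19.2%, beside 10.6%) with the variance trend, and 5 to 13 with 1 array left out. Of 671 values of 57 named genes, 659 kept their sign. The 12 that turned all came with 1 array left out, with ranges of −0.084 to 0.035 for ACO1, −0.032 to 0.38 for HMOX1, −0.078 to 0.24 for ALAS2, −0.070 to 0.15 for HMOX2, −0.078 to 0.095 for BACH1, −0.14 to 0.033 for LYZ, −0.0056 to 0.45 for HBA1, −0.031 to 0.33 for ING4 and −0.096 to 0.37 for ANKK1. The cause of these shifts was not tested. TFRC stayed between −0.33 and −0.11 and SLC11A2 between 0.09 and 0.16. HMOX1 was below the median level and gave no value under that filter.

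The replicate numbers are shared by the groups, but nothing in the labels ties them to a batch, and the deviations of same-numbered arrays correlated at 0.087 over probe sets. Differences between same-numbered arrays kept their sign for TFRC, SLC11A2 and ALAS1 and had opposite signs for FTL, ACO1, FECH and HMOX1. With a replicate block 0 genes passed, the unadjusted count over all genes was 2168 against 2064, EPAS1 had an unadjusted limma p of 0.0368 against 0.0744 (adjusted p = 0.548, with 0.376 to 0.823 over all settings), and TFRC kept −0.22 (limma adjusted p = 0.578, with 0.455 to 0.924 over all settings).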
